A study of Sus scrofa with 4 samples.

Results

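The proteins of the cytosolic ribosome are encoded by about as many genes as there are proteins in the particle, and 82 of these genes were followed here in pig kidney. Members were chosen by gene symbol: RPS or RPL with a number and an optional A, X, Y or L, together with RPSA and the RPLP genes, with 10 or more counts in at least 1 library. All 82 symbols of this form passed that minimum, out of 26466 gene symbols in the files and 18168 that reached 10 counts. The gene nearest to the minimum was RPL10L, with 36 counts in its highest library. RPL10L reached 10 counts only in the transplanted libraries, so its choice already favours a higher value after transplantation, and its values in that comparison are a description. Of these genes 32 belong to the small subunit and 50 to the large one. RNA was sequenced in 4 libraries, 1 per group, so there is no replicate within a group. The groups were a transplanted CD39/CD46/CD55/TBM kidney, an untransplanted CD39/CD46/CD55/TBM kidney, a transplanted CD39/CD55 kidney and an untransplanted CD39/CD55 kidney. All pigs lacked the galactosyltransferase GalT (GalT-/-), which makes the alpha-Gal antigen, and carried human CD39 (hCD39) and human CD55 (hCD55). The CD39/CD46/CD55/TBM pigs carried human CD46 (hCD46) and thrombomodulin (TBM) as well. Transplanted kidneys had been placed in non-human primates and were taken 6 weeks later in CD39/CD46/CD55/TBM and 4 weeks later in CD39/CD55. The effects of genotype, weeks and recipient cannot be told apart between the transplanted kidneys. Transgene promoters, the age of the animals and the number of animals behind a library were not given in the sources used here.

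A ribosome joins a small subunit, which reads the messenger RNA, to a large subunit, which forms the peptide bonds. Each subunit is assembled in the nucleolus from ribosomal RNA and ribosomal proteins in near-equal numbers of molecules, so the genes are usually transcribed together and at high levels in every cell type. Their messenger RNAs begin with a terminal oligopyrimidine (TOP) tract, which places their translation under the control of the growth kinase complex mTORC1. Proximal tubule cells, the most numerous cells of the kidney cortex and the site of most solute uptake, are a major source of its RNA.

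The total count was 10346863 in the transplanted CD39/CD46/CD55/TBM library, 13226372 in the untransplanted CD39/CD46/CD55/TBM library, 11566041 in the transplanted CD39/CD55 library and 14092905 in the untransplanted CD39/CD55 library. All 12 proximal tubule markers examined had counts in both untransplanted libraries, and SLC22A6 was at 0 in the transplanted CD39/CD46/CD55/TBM library. Their summed level was 3659 and 10894 scaled CPM (counts per 1e6 of the scaled total) in the transplanted CD39/CD46/CD55/TBM and CD39/CD55 libraries, against 17841 and 20653 in the untransplanted ones. In whole tissue, fewer cells of a type and less RNA per cell cannot be told apart. Of 5 loci taken as ribosomal RNA, RN18S and RN5-8S are annotated as such, and the other 3 are annotated as protein-coding with counts close to those of RN18S, so the same reads may have been counted at several of them. They took 18.9% and 22.4% of counts in the transplanted libraries, in the same genotype order, against 12.6% and 10.8% in the untransplanted ones. The 13 mitochondrially encoded genes took 12.6% and 4.23% in the transplanted libraries, against 15.0% and 10.6%.

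Ribosomal protein genes took a larger share of the RNA in the transplanted CD39/CD55 kidney than in the other kidneys. They held 439014 of all counts in the transplanted CD39/CD46/CD55/TBM library and 599655 in the untransplanted one. They held 828332 in the transplanted CD39/CD55 library and 615530 in the untransplanted one. These sums are shares of 4.24% and 4.53% in transplanted and untransplanted CD39/CD46/CD55/TBM, and of 7.16% and 4.37% in transplanted and untransplanted CD39/CD55. Their exact 95% binomial intervals (Clopper-Pearson) reached no farther than 0.0149 percentage points from the share and cover counting error only. With the ribosomal RNA loci and mitochondrially encoded genes left out of the total, the shares were 6.200% and 6.27% in CD39/CD46/CD55/TBM, and 9.77% and 5.56% in CD39/CD55. The transplanted CD39/CD55 library was highest by either total. The lowest was the transplanted CD39/CD46/CD55/TBM library by all counts and the untransplanted CD39/CD55 library by the reduced total.

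**Figure D1:**
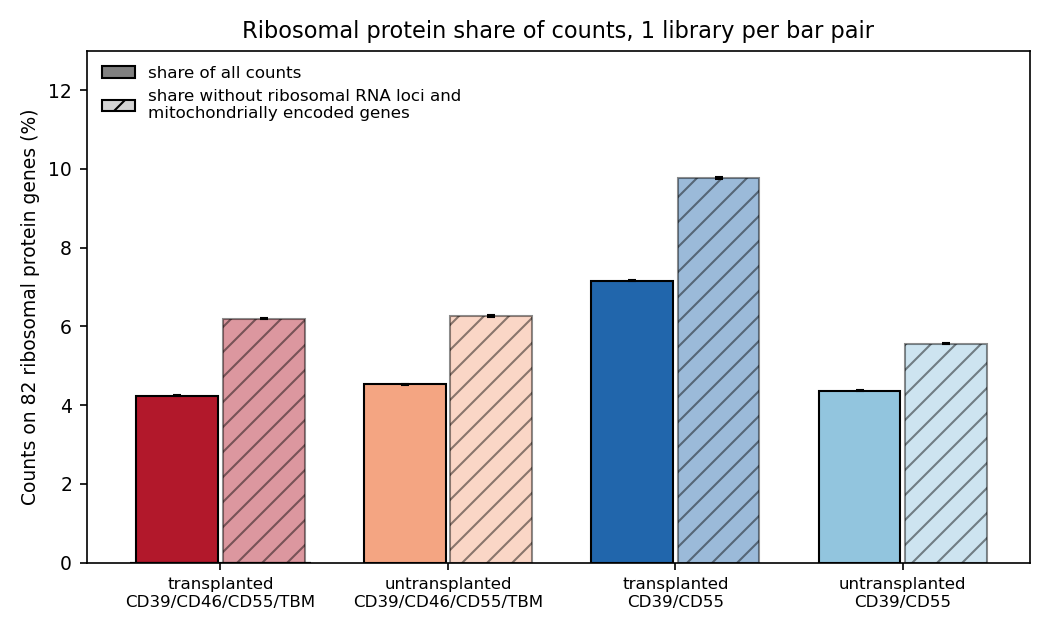
Share of counts on the 82 ribosomal protein genes in each library, in percent of all counts (plain bars) and of counts without ribosomal RNA loci and mitochondrially encoded genes (hatched bars), with exact 95% binomial intervals. The transplanted CD39/CD55 library stands at 7.16% and 9.77%, above the other 3 libraries, which lie between 4.24% and 4.53% and between 5.56% and 6.27%.

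Small and large subunit genes went together in this. Small subunit genes held 1.94% and 2.12% of counts in transplanted and untransplanted CD39/CD46/CD55/TBM, and 3.42% and 2.08% in transplanted and untransplanted CD39/CD55. Large subunit genes held 2.31% and 2.42%, and 3.74% and 2.29%, in the same order. The ratio of small to large subunit counts ranged from 0.839 to 0.915 over the 4 libraries.

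Gene by gene, counts were next scaled by library size and edgeR's TMM factors. The transplanted CD39/CD55 library had the highest scaled level for 61 of the 82 genes, against 19.3% of all 18168 genes tested. It was the lowest library for none of them. The untransplanted CD39/CD46/CD55/TBM library was highest for 10 (20% of all genes), the untransplanted CD39/CD55 library for 9 (28.5%) and the transplanted CD39/CD46/CD55/TBM library for 2 (32.2%). The last 2 were the paralog genes RPL10L and RPL22L1. The lowest level fell in the untransplanted CD39/CD55 library for 35 genes (29.5% of all genes had it alone lowest), in the transplanted CD39/CD46/CD55/TBM library for 30 (31.6%) and in the CD39/CD46/CD55/TBM kidney before transplantation for 17 (20.6%). The transplanted CD39/CD55 library was alone lowest for 17.8% of all genes.

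**Figure D2:**
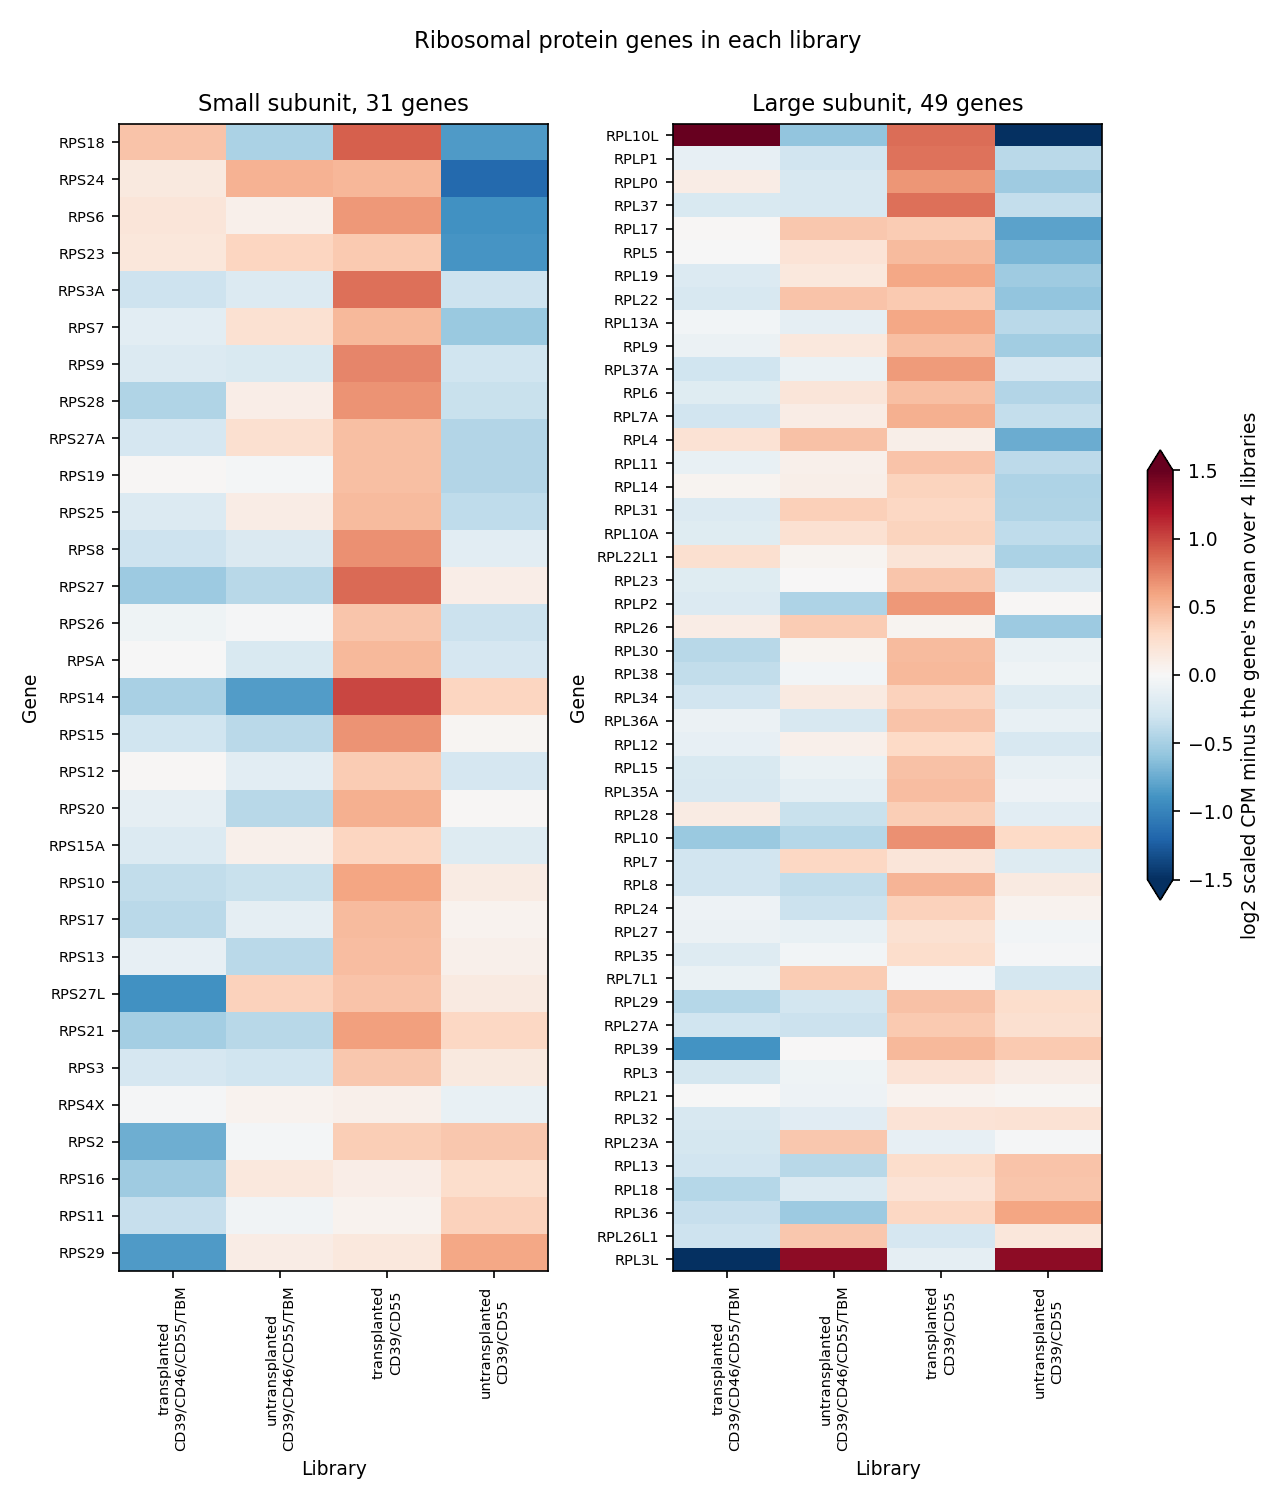
Level of ribosomal protein genes in each library, as log2 scaled CPM minus the mean of that gene over the 4 libraries (colour), for 31 of the 32 small subunit genes (left) and 49 of the 50 large subunit genes (right), ordered by the ratio of transplanted to untransplanted CD39/CD55. The transplanted CD39/CD55 column is mostly red, and RPL10L and RPL3L stand apart from the rest.

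After transplantation in CD39/CD46/CD55/TBM, most ribosomal protein genes lay near their untransplanted level. Between single libraries, a call needed a scaled ratio of at least 2-fold and an exact 95% counting interval that excluded 1. Such calls compare libraries and not conditions. By it the gene higher was RPL10L, which the minimum had let in through its transplanted counts, where 15.9% of all genes tested were higher, and 2 were lower, RPL3L and RPS27L, where 16.3% of all genes were. At 1.5-fold the counts were 2 higher and 10 lower, against 24% and 25% of all genes. The median log2 ratio of the 82 genes was -0.14, and the middle 80% lay between -0.66 and 0.26. Ratios were below 0 for 53 of the 82 genes, with 49 counting intervals wholly below 0 and 23 wholly above 0. Of all 18168 genes tested 8998 were below 0, with 6130 intervals wholly below 0 and 5865 wholly above 0. Over all genes tested the median was 0.01 and the middle 80% ran from -1.52 to 1.47, a range that includes the counting noise of rare transcripts. The 1432 other genes with a mean of at least 100 scaled CPM, a limit chosen after the data were seen, had a median of -0.31. Their middle 80% ran from -2.04 to 0.79. Of these abundant genes 932 were below 0, with 872 intervals wholly below 0 and 456 wholly above 0.

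In CD39/CD55, most ribosomal protein genes were higher after transplantation. The median log2 ratio was 0.57, with the middle 80% of genes between -0.09 and 1.17, against a median of 0.03 over all genes and -0.28 over the other abundant genes. Ratios were above 0 for 71 of the 82 genes, and 69 had a counting interval wholly above 0. Of all 18168 genes tested 9306 were above 0, and 5742 had an interval wholly above 0. Among the 1432 other abundant genes these counts were 535 and 481. By the 2-fold rule 15 genes were higher, where 13.2% of all genes tested were, and 1 was lower, RPL3L, where 13.7% of all genes were. At 1.5-fold 40 were higher and 1 lower, against 22% and 22.6% of all genes. The 2-fold count is a share of the 82 genes (18.3%) not far from that of all genes, and the shift shows rather in the median and in the 1.5-fold count. The 15 were RPL10L, RPS18, RPS24, RPS6, RPS23, RPLP1, RPLP0, RPL37, RPL17, RPL5, RPS3A, RPL19, RPS7, RPS9 and RPS28. With the libraries scaled to total count alone, 23 were called higher, and the share of all genes called by that scaling is not given here. The median of the 82 genes was then 0.70, while the median of all genes moved up by 0.14.

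**Figure D3:**
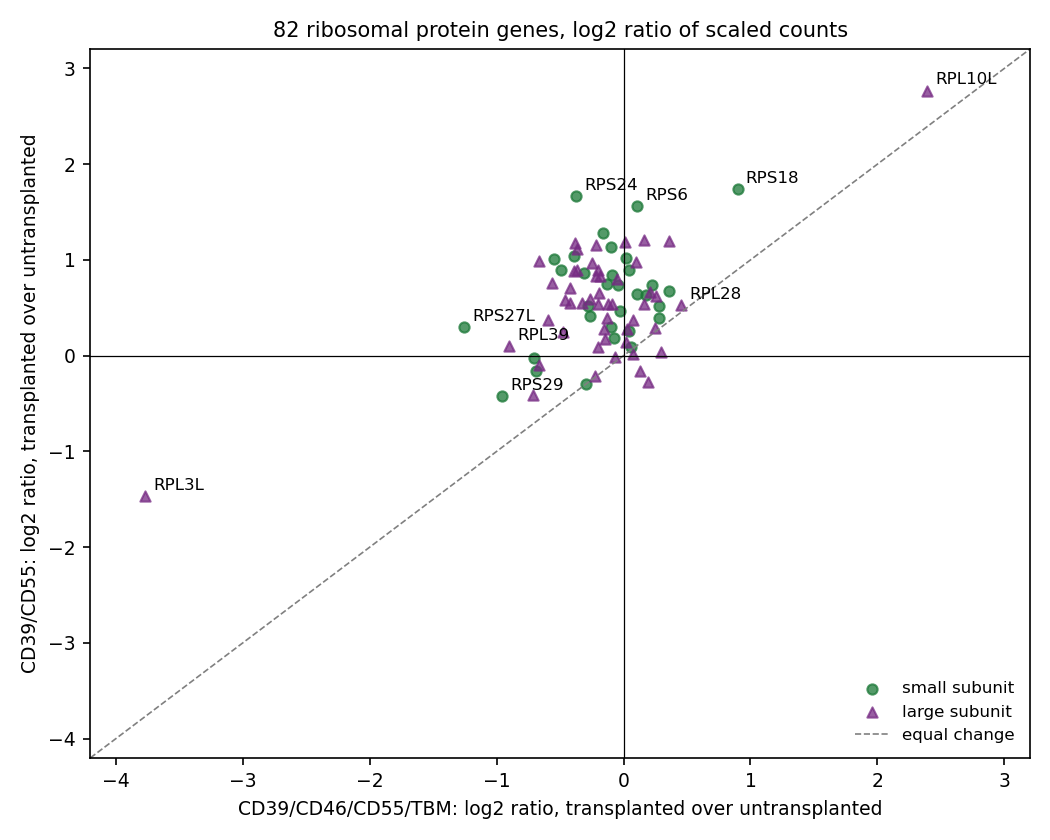
Log2 ratio of transplanted over untransplanted scaled counts for each of 82 ribosomal protein genes, in CD39/CD46/CD55/TBM (horizontal) and CD39/CD55 (vertical), with circles for the small and triangles for the large subunit and a dashed line at equal change. Most points lie above the line, around a median of -0.14 on the horizontal and 0.57 on the vertical axis, with RPL10L at the upper right and RPL3L at the lower left.

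The genes of the ribosomal stalk were high in the transplanted CD39/CD55 kidney. The stalk is the arm of the large subunit that recruits elongation factors, built from a base protein, RPLP0, and copies of RPLP1 and RPLP2. RPLP0 lies on chromosome 14 (40219196 to 40223943 in build Sscrofa11.1, used for all positions) and gave 11908 and 11391 counts in transplanted and untransplanted CD39/CD46/CD55/TBM, and 20819 and 10097 in transplanted and untransplanted CD39/CD55. Its log2 ratio of scaled counts was 0.35 (95% counting interval 0.32 to 0.39) in CD39/CD46/CD55/TBM and 1.19 (1.16 to 1.23) in CD39/CD55. RPLP1 had 10452 and 11422 counts in transplanted and untransplanted CD39/CD46/CD55/TBM, and 23875 and 11467 in CD39/CD55. RPLP2 had 7910 and 8097, and 17043 and 12244. Scaled levels of RPLP0 and RPLP1 were higher in both transplanted libraries than in either untransplanted one, whereas those of RPLP2 were high in both CD39/CD55 libraries.

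Among small subunit genes, RPS6 and RPS18 had large ratios in CD39/CD55. RPS6 encodes the protein that S6 kinases phosphorylate when mTORC1 is active. RPS6 (chromosome 1, 203444360 to 203447643) had 13393 and 15250 counts in transplanted and untransplanted CD39/CD46/CD55/TBM, and 22298 and 8384 in transplanted and untransplanted CD39/CD55. The log2 ratio was 0.10 in CD39/CD46/CD55/TBM and 1.56 in CD39/CD55, and the 8384 counts of the untransplanted CD39/CD55 library were the low value. RPS18, of the head of the small subunit (chromosome 7, 29638856 to 29642912), had 8224 and 5397 counts in CD39/CD46/CD55/TBM, and 13608 and 4514 in CD39/CD55. It was 1.86-fold higher after transplantation in CD39/CD46/CD55/TBM and 3.34-fold higher in CD39/CD55, the highest ratio in either genotype among genes of more than 100 counts. Both transplanted libraries were above both untransplanted ones for RPS18. Its annotated span overlaps VPS52, whose counts ran the other way, with 42 and 150 in transplanted and untransplanted CD39/CD46/CD55/TBM, and 60 and 138 in CD39/CD55.

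RPSA, RPS3, RPS27A and RPS29 had log2 ratios between -0.96 and 0.89 in the 2 genotypes. RPSA, known also as a laminin receptor precursor, had 3495 and 3653 counts in transplanted and untransplanted CD39/CD46/CD55/TBM, and 5840 and 3888 in CD39/CD55, with log2 ratios of 0.23 and 0.74. RPS3, at the entry of the messenger RNA channel, had 8954 and 10632, and 16886 and 15690, with ratios of 0.04 and 0.26. RPS27A, made as a fusion to ubiquitin, had 15125 and 25981, and 29343 and 17520, with ratios of -0.49 and 0.89. RPS29 was among the lowest genes in both genotypes. It had 9484 and 22569 counts in transplanted and untransplanted CD39/CD46/CD55/TBM, and 22741 and 33780 in CD39/CD55, with log2 ratios of -0.96 and -0.42. As a share of all ribosomal protein counts, which does not depend on the scaling, RPS29 took 2.16% and 3.76% in CD39/CD46/CD55/TBM and 2.75% and 5.49% in CD39/CD55. RPS18 took 1.87% and 0.900%, and 1.64% and 0.733%, so these genes moved apart within the ribosomal set in both genotypes.

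Among large subunit genes, RPL5 and RPL11 join 5S ribosomal RNA in a particle that also binds the p53 regulator MDM2. RPL5 had 13193 and 18725 counts in transplanted and untransplanted CD39/CD46/CD55/TBM, and 22031 and 10946 in CD39/CD55, with log2 ratios of -0.21 and 1.16. RPL11 had 3245 and 4501, and 5636 and 3523, with ratios of -0.18 and 0.83. Both were highest in the transplanted and lowest in the untransplanted CD39/CD55 library. RPL10, which joins the large subunit late in its maturation, had 6076 and 8120, and 17299 and 14644, and was low in both CD39/CD46/CD55/TBM libraries. RPL28 had 4022 and 3601, and 5705 and 4394, with ratios of 0.45 and 0.53. RPL21 kept close levels throughout, with 3890 and 4528, and 4832 and 5287 counts and ratios of 0.07 and 0.02.

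The change with transplantation was compared between the genotypes as the log2 ratio of the 2 ratios, CD39/CD46/CD55/TBM over CD39/CD55, with a 95% Wald counting interval. Its median over the 82 genes was -0.77, against -0.01 over all genes and -0.05 over the other abundant genes. It was below 0 for 78 genes, including all 32 of the small subunit. Of all 18168 genes it was below 0 for 9206, and of the 1432 other abundant genes for 772. By the 2-fold rule 27 were lower, where 11.5% of all genes were, and none was higher, where 10.4% of all genes were. At 1.5-fold 47 were lower and none higher, against 19% and 18.2% of all genes. RPS24, mutated in some families with Diamond-Blackfan anaemia in humans, had a difference of -2.04 (-2.10 to -1.97). Its counts were 8783 and 13913 in transplanted and untransplanted CD39/CD46/CD55/TBM, and 13360 and 4681 in transplanted and untransplanted CD39/CD55, so the untransplanted CD39/CD55 library stood alone below the rest. RPL22, which encodes an RNA-binding protein of the large subunit, had 3859 and 7481, and 7169 and 4011, a difference of -1.65. RPS28 had 9774 and 17470, and 25513 and 14042, a difference of -1.56, and here the transplanted CD39/CD55 library stood above the rest. Among the genes with a difference above 0 were RPL36 (0.47), RPL13 (0.29) and RPL21 (0.05). RPL36 had 5433 and 5801 counts in CD39/CD46/CD55/TBM, and 10254 and 13793 in CD39/CD55. With 4 groups of 1 library this difference has no replicate check.

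Between the transplanted kidneys, ribosomal protein genes were lower in CD39/CD46/CD55/TBM than in CD39/CD55. The median log2 ratio was -0.62, against 0.01 over all genes and -0.08 over the other abundant genes. Ratios were below 0 for 78 of the 82 genes. They were below 0 for 9031 of all 18168 genes and for 786 of the 1432 other abundant genes. By the 2-fold rule 12 were lower (14.6%) and 1 higher (1.22%), where 11% of all genes were lower and 11% higher. At 1.5-fold 44 were lower (53.7%) and 1 higher (1.22%), against 20.1% and 19.7% of all genes. The share lower at 2-fold is not far from that of all genes, and the shift shows rather in the median and in the 1.5-fold count. The 12 were RPL3L, RPS14, RPS27, RPL39, RPS27L, RPL10, RPS3A, RPS28, RPS21, RPS2, RPL37 and RPS29, and the higher gene was RPL10L. RPS14, lost in the 5q- syndrome of human marrow, had 3163 counts in transplanted CD39/CD46/CD55/TBM and 10576 in transplanted CD39/CD55, a log2 ratio of -1.48 (-1.54 to -1.43). RPS27 had 4380 and 13748 (-1.39), and RPL39, of the wall of the exit tunnel, 2298 and 7167 (-1.38). RPL4 and RPL26 were near equal, with 7962 and 8700 counts (0.13) and 12052 and 13735 (0.07).

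Between the untransplanted kidneys the genes went both ways. The median log2 ratio of CD39/CD46/CD55/TBM over CD39/CD55 was 0.11. Ratios were above 0 for 47 genes and below 0 for 35, where 9161 and 9007 of all 18168 genes were. The standard deviation over the 82 genes was 0.59, against 0.43 between the transplanted kidneys. By the 2-fold rule 5 were higher, where 8.17% of all genes were, and 2 were lower, where 7.88% of all genes were. At 1.5-fold the counts were 16 and 8, against 16.4% and 16.9% of all genes. The 5 higher genes were RPS24, RPS23, RPL17, RPL4 and RPL22, and the 2 lower were RPS14 and RPL36. RPS23, which helps to keep decoding accurate, had 10715 counts in untransplanted CD39/CD46/CD55/TBM and 5024 in untransplanted CD39/CD55 (1.21, 1.16 to 1.26). RPL17, near the exit of the tunnel, had 8678 and 4097 (1.20) and RPL4, of the tunnel wall, 11345 and 5412 (1.19). RPS14 had 3010 and 7321 (-1.16) and RPL13 3844 and 7472 (-0.84). Single ribosomal protein genes thus differed by up to 3.22-fold, the value of RPS24, between kidneys that had not been transplanted.

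The comparison of transplanted with untransplanted kidneys over both genotypes, 2 libraries against 2, gave no ribosomal protein gene past the threshold. In edgeR's quasi-likelihood test with Benjamini-Hochberg adjustment over all genes, 0 of the 82 passed in either direction, where 1.24% of all genes rose and 2.71% fell. At an unadjusted p under 0.05 there were 2 above and 1 below, where 8.99% of all genes were above and 10.7% below. DESeq2's Wald test passed RPS18 upward and RPL3L downward, where it passed 413 of all 18168 genes upward and 860 downward. No ribosomal protein gene passed by limma voom. The genes nearest the threshold were RPL3L (log2 fold change -2.20, SE 0.68, adjusted p = 0.095 by edgeR's test), RPL10L (2.58, SE 0.84, adjusted p = 0.112) and RPS18 (1.33, SE 0.49, adjusted p = 0.152). Without the transplanted CD39/CD55 library, 1 transplanted library remained and was assumed to vary like the untransplanted ones. The median log2 fold change of the 82 genes was then -0.11 in place of 0.26. Without the transplanted CD39/CD46/CD55/TBM library that median was 0.53. With genotype as a block, RPL10L and RPS18 passed upward and RPL3L downward, where 1124 of all 18168 genes passed upward and 1681 downward. This pass of RPL10L is not independent of the count minimum that let it in. Scaled levels of both transplanted libraries were above both untransplanted ones for 14 of the 82 genes, where 26.3% of all genes were, and below for 4, where 25.5% of all genes were. The 4 were RPL3L, RPL23A, RPL26L1 and RPS16. Each side holds 1 library of each genotype, so the spread includes any genotype difference. Nothing in the labels gives the number of animals, or says that a transplanted and an untransplanted kidney of a genotype came from separate animals, so p measures only the spread between these libraries.

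The comparison of the genotypes over both states likewise passed no ribosomal protein gene. In edgeR's test 0 of all 18168 genes passed (0%), while 190 (1.05%) were above and 259 (1.43%) below at an unadjusted p under 0.05, 1 ribosomal protein gene (RPS14) among those below. DESeq2's Wald test passed 12 genes upward and 5 downward, none of them a ribosomal protein gene, and limma voom passed none. RPS14 had a log2 fold change of -1.35 (adjusted p = 0.982 by edgeR's test). Scaled levels of both CD39/CD46/CD55/TBM libraries were below both CD39/CD55 libraries for 31 of the 82 genes, where 15.6% of all genes were, and above for 2, RPL4 and RPL26, where 15.3% of all genes were. Among the 31 were RPS14, RPL10, RPS27, RPL36, RPL13, RPS21 and RPLP2.

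Of the 82 genes 6 are paralogs of another member, and within such a pair a share of counts does not depend on the scaling. RPL3L, which replaces RPL3 in striated muscle of mice and humans (chromosome 3, 40004907 to 40016702), had 5 and 91 counts in transplanted and untransplanted CD39/CD46/CD55/TBM, and 32 and 99 in transplanted and untransplanted CD39/CD55. Its share of RPL3L plus RPL3 was 0.211% (95% interval 0.0687 to 0.493, Clopper-Pearson) and 2.67% (2.15 to 3.27) in CD39/CD46/CD55/TBM, and 0.816% (0.559 to 1.150) and 2.38% (1.94 to 2.89) in CD39/CD55. Both transplanted libraries were below both untransplanted ones. RPL3L overlaps NDUFB10, a subunit gene of respiratory complex I, which had 851 and 1497 counts in CD39/CD46/CD55/TBM and 1689 and 2667 in CD39/CD55, so reads of the 2 genes may not be separated. RPL10L, the copy that takes the place of RPL10 in mouse spermatogenesis, had 36 and 8, and 21 and 3 counts. It was 5.25-fold higher after transplantation in CD39/CD46/CD55/TBM (log2 ratio 2.39, 1.33 to 3.78) and 6.81-fold higher in CD39/CD55 (2.77, 1.21 to 5.35). RPL10 itself had 6076 and 8120, and 17299 and 14644 counts. RPL10L thus took 0.589% and 0.0984% of the pair in transplanted and untransplanted CD39/CD46/CD55/TBM, and 0.121% and 0.0205% in CD39/CD55. Whether stray RPL10 reads entered the counts of its near copy was not tested.

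RPS27L, a target of p53 in human cells, made up less of its pair with RPS27 in both transplanted kidneys. It had 952 and 2776 counts in transplanted and untransplanted CD39/CD46/CD55/TBM, and 2879 and 2592 in CD39/CD55. Its share of the pair was 17.9% and 32.2% in CD39/CD46/CD55/TBM and 17.3% and 22.2% in CD39/CD55. RPL26L1 likewise took 2.41% and 3.26% of its pair with RPL26 in transplanted and untransplanted CD39/CD46/CD55/TBM, and 2.64% and 5.16% in CD39/CD55. RPL22L1, which RPL22 represses in mice, took a larger share of its pair after transplantation in CD39/CD46/CD55/TBM and a smaller one in CD39/CD55. It had 882 and 935 counts in CD39/CD46/CD55/TBM, and 1015 and 710 in CD39/CD55, and took 18.6% and 11.11% of its pair with RPL22, and 12.4% and 15.0%. RPL7L1, a nucleolar relative of RPL7, took 6.99% and 6.50%, and 5.44% and 5.92%, with intervals that overlapped within each genotype.

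**Figure D4:**
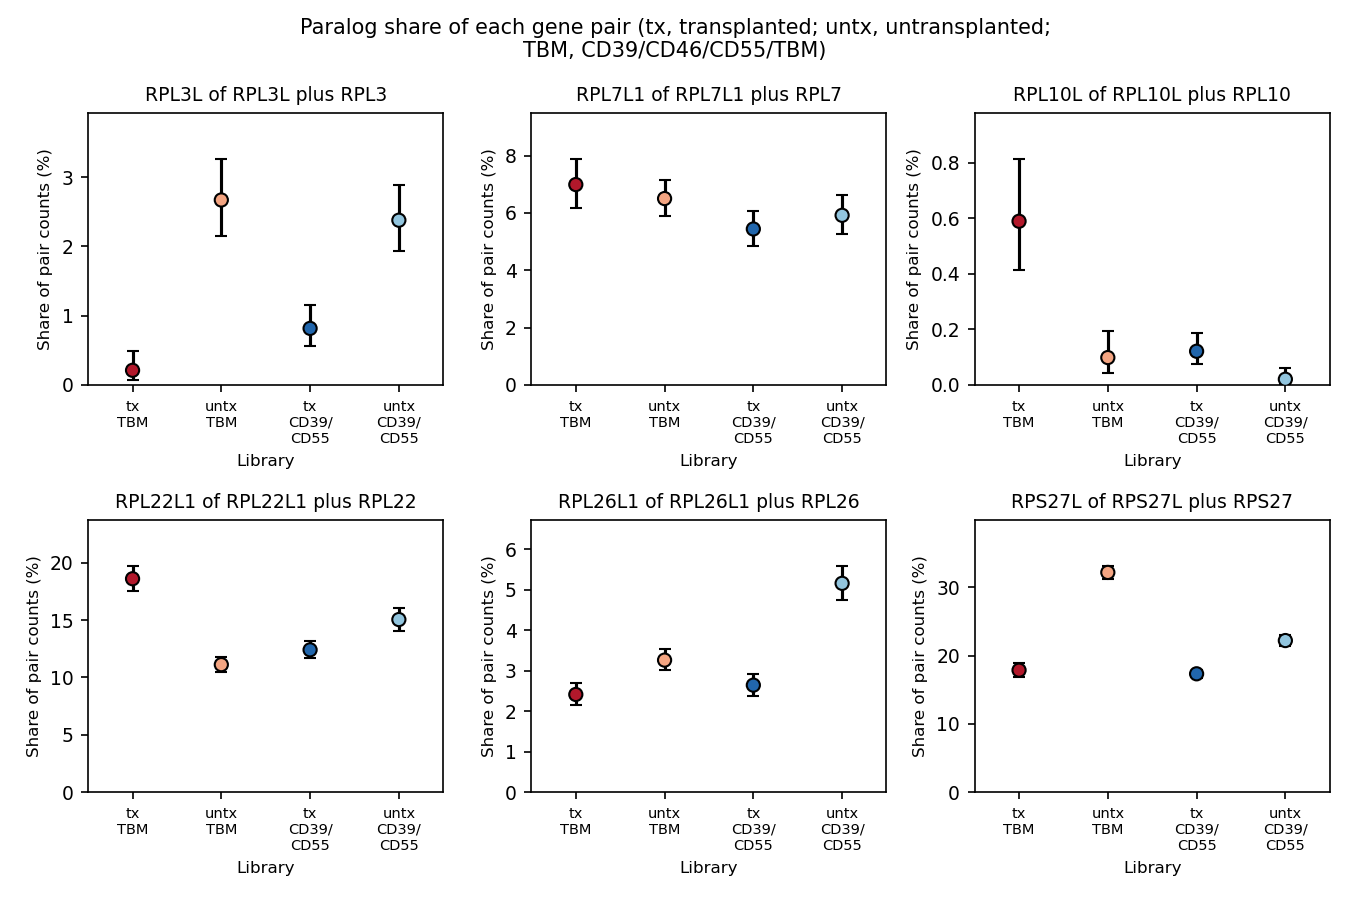
Share of each paralog in the summed counts of the paralog and its partner, in percent, in the transplanted (tx) and untransplanted (untx) library of CD39/CD46/CD55/TBM (TBM) and of CD39/CD55, with exact 95% binomial intervals. RPL3L, RPL26L1 and RPS27L take smaller shares and RPL10L larger ones in the transplanted library of each genotype, while RPL22L1 goes up to 18.6% in one and down to 12.4% in the other.

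Other genes of translation were set beside the ribosomal proteins. Of 26 measured genes for translation factors and other proteins with TOP messenger RNAs, none passed edgeR's test for transplantation (1 above and 1 below at an unadjusted p under 0.05), and the median log2 ratio was -0.21 in CD39/CD46/CD55/TBM and 0.32 in CD39/CD55. EEF1B2, a subunit of the factor that reloads elongation factor 1, had 6880 and 8539 counts in transplanted and untransplanted CD39/CD46/CD55/TBM, and 13163 and 8147 in CD39/CD55. FAU, which encodes a ribosomal protein fused to a ubiquitin-like protein and lies outside the symbol rule, had 3242 and 3516, and 7087 and 5504 counts. VIM, which encodes vimentin and is high in mesenchymal cells, had 4193 and 1403, and 4685 and 1857 counts (adjusted p = 0.057 by edgeR's test), and EIF4A2, a helicase of initiation, 1218 and 6049, and 1551 and 3503 (adjusted p = 0.085).

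Genes of ribosome assembly had medians near 0. Of 50 ribosome biogenesis genes none passed edgeR's test for transplantation (3 above and 3 below at an unadjusted p under 0.05), with medians of 0.04 in CD39/CD46/CD55/TBM and 0.16 in CD39/CD55. GNL3, which encodes nucleostemin, had 258 and 143 counts in transplanted and untransplanted CD39/CD46/CD55/TBM, and 292 and 126 in CD39/CD55 (adjusted p = 0.121), while NOP16 had 125 and 360, and 178 and 403 (adjusted p = 0.150). Of 21 genes for mTORC1 and the regulators through which it controls TOP messenger RNAs none passed (1 above and 1 below at an unadjusted p under 0.05), with medians of 0.11 and -0.30. RHEB, the activator of mTORC1, had 303 and 112, and 136 and 93 counts (adjusted p = 0.164). Of 7 measured MYC family genes none passed (1 above at an unadjusted p under 0.05), and MYC, a driver of ribosome production, had 69 and 56, and 25 and 30 counts (adjusted p = 0.783).

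Mitochondrial ribosomal proteins, which translate the mitochondrial genome, had lower medians after transplantation in both genotypes. Of 77 genes 2 fell and none rose in edgeR's test, a share close to the 2.71% of all genes that fell. At an unadjusted p under 0.05, 14 were below and 0 above, where 10.7% and 8.99% of all genes were, with medians of -0.67 in CD39/CD46/CD55/TBM and -0.41 in CD39/CD55. MRPS16 fell to 306 counts in transplanted against 1099 in untransplanted CD39/CD46/CD55/TBM, and to 289 against 1505 in CD39/CD55 (log2 fold change -1.89, SE 0.42, adjusted p = 0.025). MRPL24 fell to 59 counts in transplanted against 318 in untransplanted CD39/CD46/CD55/TBM, and to 151 against 650 in CD39/CD55 (-2.01, SE 0.51, adjusted p = 0.045). Nuclear genes of oxidative phosphorylation, of which 35 of 61 listed symbols were in the files, had medians of -0.85 and -1.08, and none passed (18 below and 0 above at an unadjusted p under 0.05). UQCR10, a small subunit of respiratory complex III, had 398 and 1535, and 612 and 1943 counts (adjusted p = 0.055).

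**Figure D5:**
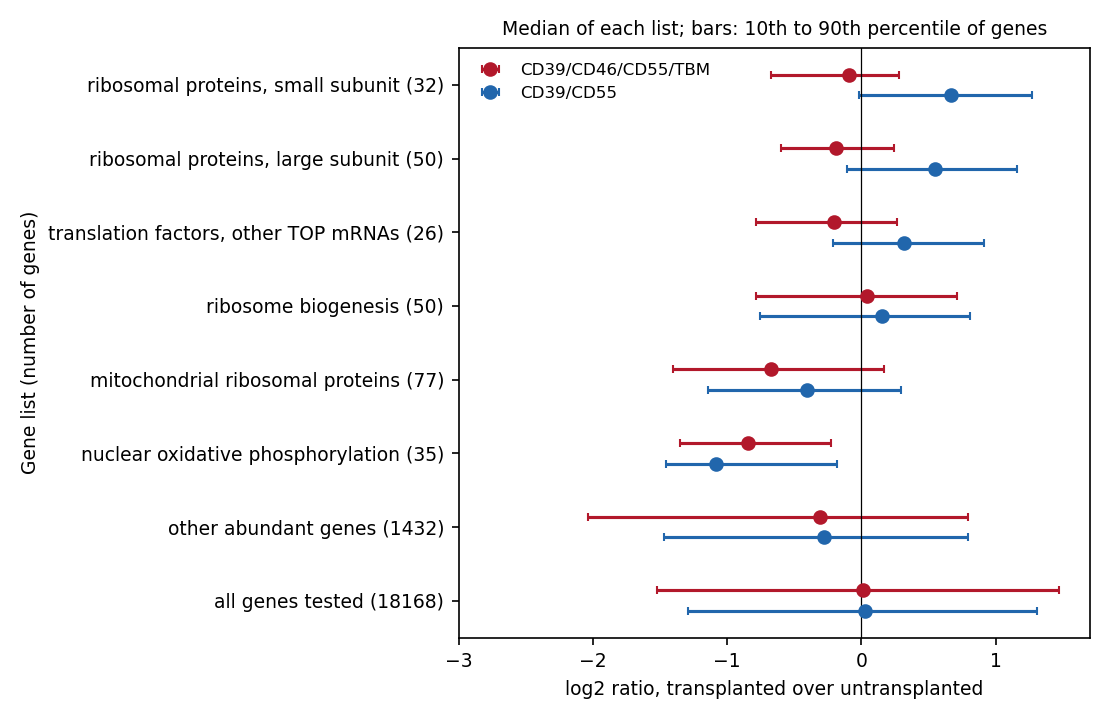
Median log2 ratio of transplanted over untransplanted scaled counts for lists of genes in CD39/CD46/CD55/TBM (red) and CD39/CD55 (blue), with bars from the 10th to the 90th percentile of the genes in a list and the number of genes in brackets. Medians of cytosolic ribosomal proteins lie below 0 in CD39/CD46/CD55/TBM and above 0 in CD39/CD55, and those of mitochondrial ribosomal proteins lie below 0 in both.

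Summed levels of macrophage, proliferation, and fibroblast and mural markers were lower in the transplanted than in the untransplanted library of each genotype. Summed scaled CPM of 8 macrophage markers were 12.5 and 8.57 in transplanted CD39/CD46/CD55/TBM and CD39/CD55, against 56.4 and 62.9 in the untransplanted libraries. C1QC was at 0 in both transplanted libraries, as were CD3D of 7 T and NK cell markers, and CD79B and MZB1 of 6 B and plasma cell markers. Only 4 of these 7 and 1 of these 6 markers reached 10 counts in any library, so a 0 among them shows little. Sums of 6 proliferation markers were 24.8 and 13.6, against 35.2 and 27.0, and those of 7 fibroblast and mural markers 215 and 426, against 422 and 737. Single markers did not all follow the sums. In CD39/CD46/CD55/TBM, log2 ratios were above 0 for 1 macrophage, 1 proliferation and 2 fibroblast and mural markers. In CD39/CD55 they were above 0 for 1, 0 and 3. Ribosomal RNA loci took 18.9% and 22.4% of counts in transplanted CD39/CD46/CD55/TBM and CD39/CD55, against 12.6% and 10.8% in the untransplanted libraries. In the same order, ribosomal protein genes took 4.24% and 7.16%, against 4.53% and 4.37%. The part of cell composition, ribosomal RNA content or library quality in the ribosomal protein values was not tested.

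The 82 genes lie on 17 chromosomes, with 4 on X, and their annotated spans run from 600 to 18201 bases. Among them 14 overlap another annotated gene, RPS2, RPS14, RPS18, RPS25, RPS28 and RPL9 among them, and RPL18 is listed at 2 loci. Ribosomal protein genes have many near-identical processed copies in mammalian genomes, and how reads matching several loci were counted was not given in the sources used here, so single-gene values carry that uncertainty.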

How the data were processed

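Counts of reads per gene were deposited as whole numbers, 1 file per library, with no normalization by the authors. Per the labels' protocols, libraries were made with a Lexogen Quant-Seq kit. Kits of that name usually read 3' ends, and whether the kit with the printed catalogue number does was not settled here. Per the submitters' processing notes, Bowtie2 and bedtools were used with build Sscrofa11.1. Their versions, strand use and the handling of multiply matching or recipient reads were not given in the sources used here. Rows of a repeated symbol were summed. All 82 members matched the RefSeq gene table of Sscrofa11.1. Scaled CPM are counts divided by total count times the TMM factor. The factors were 1.00 and 0.957 for transplanted and untransplanted CD39/CD46/CD55/TBM, and 1.07 and 0.975 for transplanted and untransplanted CD39/CD55. Log2 ratios used a prior count of 0.5. A floor of 3 counts, the limit that a count of 0 allows, is 0.219 to 0.290 scaled CPM. Intervals and floors cover counting error only.

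Tests of 2 libraries against 2 used edgeR 4.0.16 (quasi-likelihood, 2 residual degrees of freedom) on 18168 genes with at least 10 counts in 1 library, with Benjamini-Hochberg adjustment and a threshold of 0.05. SE is the absolute log2 fold change over the square root of F. Alternatives included DESeq2 1.42.0 and limma 3.58.1. Scripts were tested on simulated data. Genes named were chosen by role, by being a paralog, by the 4 highest and lowest ratios in each comparison, by calls, and by the smallest p of each list. The members, gene lists and this rule were chosen with earlier results of these data known. A list by protein length and provisional (LOC) ribosomal genes were not analysed here. Some genes, and an alternative share that adds genes under other symbols, are not reported here.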

Additional observations from a re-analysis of the deposited data

Results flagged for a closer look

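In 22 of the 82 ribosomal protein genes (26.8%) the ratio of transplanted to untransplanted lay in opposite directions in the genotypes. Both counting intervals were off 1 and the difference was at least 2-fold. By the same rule 4.60% of all genes tested did so, with either genotype as the lower one. All genes tested include rare transcripts, whose wide counting intervals meet the rule less easily. The share among the other abundant genes is not given here. All 22 ribosomal protein genes were below 1 in CD39/CD46/CD55/TBM and above 1 in CD39/CD55. The difference was not tested against replicates, as each genotype has 1 library per state. As log2 ratio of ratios, CD39/CD46/CD55/TBM over CD39/CD55, it was -2.04 for RPS24, -1.65 for RPL22, -1.56 for RPS28 and RPL17, and -1.55 for RPS27L. It was -1.48 for RPL19, -1.44 for RPS23, -1.43 for RPS7, -1.38 for RPS27A, -1.37 for RPL5, -1.32 for RPL31, -1.28 for RPL7A and -1.26 for RPL6. It was -1.24 for RPS3A, -1.22 for RPL9, -1.17 for RPS25, -1.13 for RPL10A, -1.09 for RPL37A, -1.06 for RPL4, -1.05 for RPL30, -1.01 for RPL11 and -1.003 for RPL39. RPS25 overlaps CCDC84, RPS28 overlaps NDUFA7, RPL7A overlaps MED22 and RPL9 overlaps KLB.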

How the results depend on the processing

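The labels give no replicate numbers that could pair libraries by animal. The only pairing fitted was by genotype or by state, as a block. Ribosomal protein genes called between single libraries are given as higher and lower. At 1.5-fold they were 2 and 10 for transplantation in CD39/CD46/CD55/TBM, 40 higher in CD39/CD55, 44 lower between transplanted kidneys, 16 and 8 between untransplanted kidneys, and 47 lower for the difference. Only genes reaching 100 counts left 0 and 1 in CD39/CD46/CD55/TBM, 0 lower in CD39/CD55 and 0 higher between transplanted kidneys, since RPL3L and RPL10L were then not tested. Scaling to total count gave 23 higher in CD39/CD55, for which the share of all genes is not given here. That scaling left 0 higher between transplanted kidneys, as did a prior count of 2, because RPL10L (log2 ratio 0.92 and 0.98) lay at the threshold. No named call reversed.

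For transplantation over both genotypes, edgeR passed 225 genes up and 493 down, DESeq2's Wald test 413 and 860, no filter 543 and 1035, and genotype as a block 1124 and 1681. Among ribosomal protein genes these alternatives passed 1 up and 1 down, 1 and 1, and 2 and 1. Leaving out a library, with the lone library of a side assumed to vary like the other side, gave 186 to 1051 genes up and 392 to 1349 down, and 0 to 1 ribosomal protein genes each way. The 1051 and 1349 came without the transplanted CD39/CD55 library. Adjusted p ranged from 0.000749 to 0.304 for RPL3L, 0.0219 to 0.512 for RPL10L and 0.0316 to 0.666 for RPS18. For genotype, DESeq2 passed 12 up and 5 down, state as a block 133 and 171, and leaving out a library 0 to 14 up and 0 to 4 down, with no ribosomal protein gene.

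The shares were 6.200% and 6.27% in transplanted and untransplanted CD39/CD46/CD55/TBM and 9.77% and 5.56% in CD39/CD55 without ribosomal RNA loci and mitochondrially encoded genes. The share with provisional (LOC) genes was not run, for lack of gene descriptions. The cause of these shifts was not tested. Depth limits RPL3L and RPL10L, which had 3 to 99 counts.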
